A study of Mus musculus with 9 samples.

Results

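The simple epithelial keratins Krt7, Krt8, Krt18 and Krt19 were described in 9 clones of the mouse embryonic stem cell line E14. They are 4 of the 35532 gene symbols in the deposited tables and of 50 counted keratin genes, those with symbols of Krt and a number alone. Keratin symbols that end in a letter were not counted, so totals over keratins below leave them out. The 4 genes were chosen for the way their levels differed between clones. Their levels are therefore given as a description, with no test. The mRNA of each clone was sequenced as 1 stranded library. The clones were taken from the bulk line for their differing lipid droplet sizes, and all were grown alike on gelatin with serum and leukaemia inhibitory factor, so no stated genotype, agent or time separates them. No droplet size is tied to any clone in the labels used here. Each clone is 1 sample without a group or a replicate, and its number is only a name.

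Keratins are the intermediate filament proteins of epithelial cells. A filament is built from pairs of 1 type I and 1 type II protein, so that a cell with filaments makes both types. Krt7 and Krt8 are of type II, and Krt18 and Krt19 are of type I. Krt8 and Krt18 are the pair of simple, single-layered epithelia and are among the first keratins made in the embryo, in the trophectoderm. Krt7 and Krt19 accompany them in ducts, mesothelium and trophoblast. Type II keratin genes lie together on mouse chromosome 15 and type I genes on chromosome 11, except for Krt18, which lies at the end of the type II cluster beside Krt8.

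By the GENCODE M21 annotation of GRCm38, Krt7 spans chr15:101411043-101430313 on the plus strand, Krt8 chr15:101996698-102004482 on the minus strand, Krt18 chr15:102028180-102032027 on the plus strand and Krt19 chr11:100140810-100148665 on the minus strand. Krt8 and Krt18 point away from each other across a gap of 23.7 kb. Values below were summed over the annotated transcripts of each gene.

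The promoter windows of the 3 members found in the RefSeq promoter table (GRCm38.p6) are shown because these genes lie in 1 cluster and were highest in the same clones. Each window runs from 250 bases before to 50 bases after the RefSeq start site, 5′ to 3′ on the gene's own strand, and capitals mark the letters of the motifs searched. The windows are chr15:101412153-101412452 for Krt7, chr15:102004293-102004592 for Krt8 and chr15:102027966-102028265 for Krt18.
Krt7: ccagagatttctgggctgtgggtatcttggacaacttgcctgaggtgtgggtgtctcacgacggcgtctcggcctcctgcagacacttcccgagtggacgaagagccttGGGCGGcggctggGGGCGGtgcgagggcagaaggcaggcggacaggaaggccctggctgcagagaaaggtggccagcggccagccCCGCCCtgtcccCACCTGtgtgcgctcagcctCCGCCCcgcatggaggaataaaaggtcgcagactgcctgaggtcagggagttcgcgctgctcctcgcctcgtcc
Krt8: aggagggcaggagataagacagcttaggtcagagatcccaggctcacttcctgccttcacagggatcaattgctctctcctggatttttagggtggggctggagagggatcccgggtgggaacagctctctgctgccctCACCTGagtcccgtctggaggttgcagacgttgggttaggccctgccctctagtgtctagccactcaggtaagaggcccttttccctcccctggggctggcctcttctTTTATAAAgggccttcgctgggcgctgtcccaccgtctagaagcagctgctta
Krt18: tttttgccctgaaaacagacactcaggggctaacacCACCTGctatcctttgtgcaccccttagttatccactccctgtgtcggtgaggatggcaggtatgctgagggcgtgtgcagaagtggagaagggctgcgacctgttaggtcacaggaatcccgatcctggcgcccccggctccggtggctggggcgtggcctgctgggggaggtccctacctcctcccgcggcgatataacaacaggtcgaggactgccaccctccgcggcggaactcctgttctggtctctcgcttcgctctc
The motifs were searched on both strands. They were the core promoter box TATAAA, the AP-1 motif TGANTCA, the GC box of Sp and Klf factors with the letters GGGCGG, the Grhl motif AACCNGTT, the Tead motif GGAATG, the E-box of Snail and Zeb with the letters CAGGTG, and the Ets motif CCGGAA. The E-box was the only motif of these 7 present in all 3 windows, each time as CACCTG on the gene's strand, starting at position -44 of Krt7, -111 of Krt8 and -214 of Krt18. It is held by 20.2% of the 32851 promoters of the table. The GC box was found 4 times in the Krt7 window and in neither of the others, and 35.7% of promoters hold it. TATAAA was found in the Krt8 window alone, at position -1, overlapping a match on the other strand, and 13.6% of promoters hold it. The RefSeq start of Krt8 lies 140 bases downstream of the GENCODE start, and that of Krt18 lies 36 bases downstream. The letters of AP-1, Grhl, Tead and Ets were in none of the 3 windows, and 7.81%, 2.09%, 14.7% and 14.9% of promoters hold them. The GC content of the windows was 66.3% for Krt7, 58.0% for Krt8 and 61.3% for Krt18, beside a median of 52.7% over the table. A match is a description of letters and says nothing of a factor at the site.

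The libraries held 10783718 to 14309662 estimated counts. Some clones stood apart from the rest. In 154 (1.15%) of the 13366 genes averaging 1 CPM or more (counts scaled to a common library size of 1000000), clones 10 and 11 were the 2 highest, with the third at least 1 log2 unit below. Clones 8, 14 and 17 had a lower median over chromosome 11. The share of counts from mitochondrial genes was 0.45 to 0.85% over the 9 clones and that from ribosomal protein genes 5.46 to 6.29%, with clones 10 and 11 at 0.77 and 0.85% and at 5.89 and 5.46%. All clones had the defining transcripts of embryonic stem cells. Pou5f1 was at 852 to 1288 CPM, Sox2 at 236 to 301, Nanog at 249 to 537 and Zfp42 at 488 to 873.

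Krt8 was highest in clones 10 and 11, both at 278 CPM. Clone 4 followed at 56.1 CPM. The other 6 clones lay close together, with clone 14 at 25.4, clone 6 at 21.9, clone 13 at 20.5, clone 17 at 19.3, clone 8 at 19.1 and clone 1 at 18.2 CPM. These 2 clones thus stood clear of the rest, and clone 4 stood between them and the 6 lower clones. The level in clone 11 was 4.95-fold that in clone 4 (exact 95% interval 4.57 to 5.36, as all intervals here for counting error only), and clone 4 was 2.21-fold above clone 14 (1.94 to 2.52). From clone 14 downward, each interval between neighbours in the order held 1. Clones farther apart in that order did separate, since clone 14 was 1.32-fold above clone 17 (1.12 to 1.55). Clones 10 and 11 could not be told apart either (1.0-fold, 0.957 to 1.05).

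Krt18, the type I partner of Krt8, had the same 3 clones in the lead. It was at 182 CPM in clone 11, 167 in clone 10 and 38.8 in clone 4. Below them came clone 13 at 13.7, clone 14 at 13.2, clone 1 at 11.8 and clone 6 at 11.2 CPM, and then clone 8 at 7.64 and clone 17 at 6.47 CPM. Unlike Krt8, the lower clones of Krt18 formed 2 steps. Clone 6 was 1.46-fold above clone 8 (1.14 to 1.88), whereas neighbours within the upper 4 of them, and clones 8 and 17, were within counting error of each other. The difference between clones 10 and 11 was small but beyond counting error, at 1.09-fold (1.03 to 1.15).

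Krt19, a short type I keratin of ducts and trophoblast, was highest in clone 10 at 120 CPM and in clone 11 at 112 CPM. Clone 4 was at 39.0, clone 1 at 26.7, and clones 13 and 6 both at 25.2 CPM. Clone 14 was at 9.04, clone 17 at 5.17 and clone 8 at 4.85 CPM. The gene thus had 5 tiers, with clones 8, 14 and 17 well under the others. Clone 4 was 1.46-fold above clone 1 (1.26 to 1.69). Clone 6 was 2.79-fold above clone 14 (2.27 to 3.44), and clone 14 was 1.75-fold above clone 17 (1.3 to 2.37). The step from clone 11 to clone 4 was 2.87-fold (2.6 to 3.18), less steep than for Krt8 and Krt18. Clones 10 and 11, clones 1, 13 and 6, and clones 17 and 8 were neighbours within counting error.

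Krt7, the other type II member, had the fewest counts. It was at 5.73 CPM in clone 10 and 5.68 in clone 11, then at 3.64 in clone 1, 2.95 in clone 13, 2.52 in clone 4 and 2.44 in clone 6. Clone 14 was at 1.48, clone 8 at 0.892 and clone 17 at 0.807 CPM, which stood for 20.3, 12.5 and 11.2 estimated counts. The limit that 3 counts set for a gene with none was 0.209 to 0.293 CPM over the libraries, so the gene was detected in all 9. The same 2 clones were highest, but the step to the third clone was only 1.56-fold (1.05 to 2.38), and that clone was clone 1 rather than clone 4. Below clone 1 every interval between neighbours held 1. Across the whole of this lower part the levels did separate, since clone 1 was 4.51-fold above clone 17 (2.28 to 9.92).

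**Figure D1:**
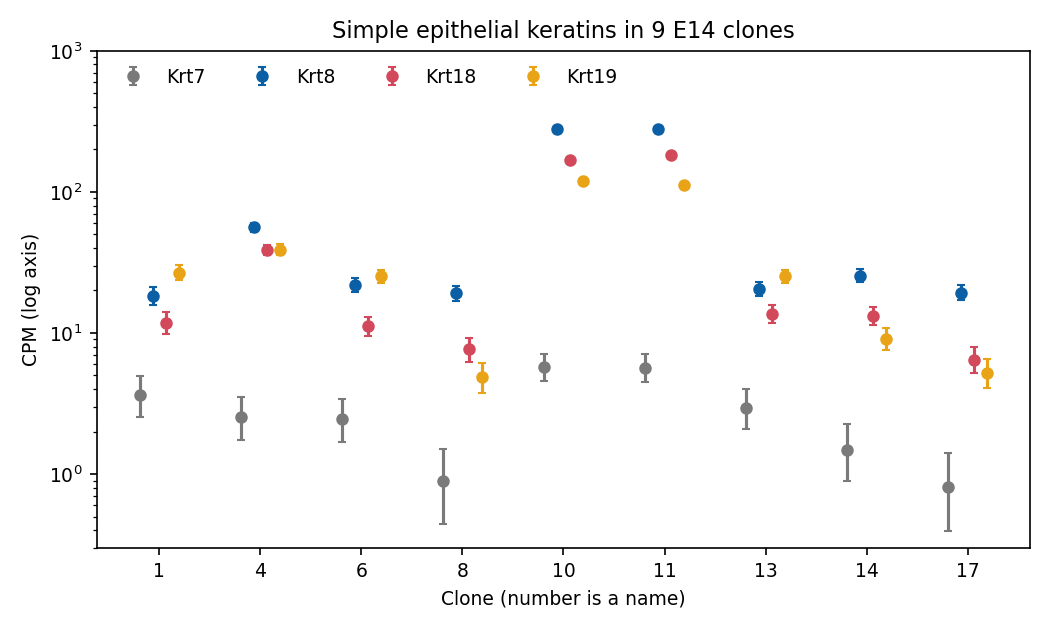
Level of each keratin in each clone as CPM on a log axis. Points are single libraries and bars are exact Poisson 95% intervals, which cover counting error only. Clones 10 and 11 lie above all other clones for every member, clone 4 lies at 56.1 and 38.8 CPM for Krt8 and Krt18, and Krt19 and Krt7 are low in clones 8, 14 and 17.

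The range over clones, the highest minus the lowest log2 CPM, was 3.92 for Krt8, 4.78 for Krt18, 4.58 for Krt19 and 2.62 for Krt7. As folds these were 15.2 (13.1 to 17.7) from clone 1 to clone 10 for Krt8, 28.2 (22.8 to 35.2) from clone 17 to clone 11 for Krt18, 24.6 (19.3 to 31.9) from clone 8 to clone 10 for Krt19 and 7.1 (3.84 to 15.1) from clone 17 to clone 10 for Krt7. All 4 had a range of at least 2, as did 1057 of the 13366 genes (7.91%), and the median range of all 13366 was 0.78. In 3 of the 4, clones 10 and 11 were highest with the third clone at least 1 log2 unit below, which held for 154 of 13366 genes (1.15%). Krt7 was the exception, with a step of 0.62, against 2.3 for Krt8, 2.1 for Krt18 and 1.52 for Krt19. Since the members were chosen on these levels, nothing is read from their share. Without clones 10 and 11 the range of Krt8 was 1.61, of Krt18 2.56, of Krt19 2.97 and of Krt7 1.99. In bulk RNA, a larger share of keratin-expressing cells in a clone and more keratin RNA per cell cannot be told apart.

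The members thus shared the 2 top clones and differed in the rest. Clone 4 was 3.08-fold above clone 1 for Krt8 (2.62 to 3.63) and 3.29-fold for Krt18 (2.69 to 4.04). For Krt19 that fold was 1.46 (1.26 to 1.69), and for Krt7 it was 0.694 with an interval that held 1 (0.423 to 1.15). The lower clones also split the members in another way. Clone 1 and clone 17 were alike in Krt8, at a fold of 0.947 (0.781 to 1.15), while clone 1 was 1.82-fold higher in Krt18 (1.38 to 2.42), 4.51-fold in Krt7 and 5.17-fold in Krt19 (3.97 to 6.79). As a measure of likeness, the log2 CPM of each gene was centred on its median clone and the absolute differences between 2 genes were averaged over the 9 clones. Krt8 and Krt18 differed by 0.27 on this scale and Krt7 and Krt19 by 0.66, and the other 4 pairs of members differed by 0.97 to 1.21. The pairs most alike were therefore Krt8 with Krt18, which are neighbours on the chromosome, and Krt7 with Krt19, which are not.

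Levels of different genes were compared as TPM, transcript abundances that are scaled for transcript length. Krt8 was at 215 and 228 TPM in clones 10 and 11, at 39.7 in clone 4 and at 12.7 to 18.5 in the other 6. Krt18 was at 181 and 210 TPM in clones 10 and 11, 38.4 in clone 4 and 6.71 to 14.6 elsewhere. The ratio of Krt8 to Krt18 was 1.03 to 1.40 in 7 clones, among them clones 10 and 11 at 1.19 and 1.09, and 1.79 in clone 8 and 2.12 in clone 17. The 2 clones with the lowest Krt18 level were thus those with the most Krt8 per Krt18. Krt8 and Krt18 were near parity whether they were high, as in clone 11, or low, as in clones 1 and 13 (1.10 and 1.07).

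Krt19 was at 146 and 149 TPM in clones 10 and 11, 49.9 in clone 4 and 32.7 to 34.0 in clones 1, 6 and 13. It was at 5.32, 12.4 and 6.23 TPM in clones 8, 14 and 17. Summed over transcripts, Krt19 was thus the leading type I member in clones 1, 6 and 13, and the ratio of Krt18 to Krt19 was 0.339, 0.350 and 0.447. In clones 10 and 11 that ratio was 1.24 and 1.41, in clones 8, 14 and 17 it was 1.53, 1.09 and 1.08, and in clone 4 it was 0.770. These values include processed transcripts of Krt19 that are not annotated as coding. Against the coding transcript Krt19-201 alone, the ratio was 0.776 in clone 1 (0.610 to 0.984), 0.754 in clone 6 (0.613 to 0.926) and 0.866 in clone 13, where the interval held 1 (0.710 to 1.06). On that measure clone 4 turned, with 1.77 times as much Krt18 as Krt19 (1.54 to 2.05), and the other 5 clones were at 1.87 to 2.80. Krt7 stayed between 0.323 and 3.32 TPM and made up 1.31 to 8.53% of the summed TPM of Krt7 and Krt8, so that Krt8 was nearly the whole of the type II members in every clone.

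The 2 types can be weighed against each other within a clone, since filaments need both. The summed TPM of Krt7 and Krt8 over that of Krt18 and Krt19 was 0.305 in clone 1 (interval 0.258 to 0.360), 0.357 in clone 13, 0.382 in clone 6 and 0.462 in clone 4. It was 0.668 in clone 10 (0.639 to 0.698), 0.645 in clone 11 (0.617 to 0.673) and 0.741 in clone 14. Clones 8 and 17 were at 1.11 (0.913 to 1.34) and 1.13 (0.929 to 1.38). Over all transcripts, type I RNA was therefore in excess in 7 clones, and in clones 8 and 17 the interval held parity. With protein-coding transcripts alone, a measure added after seeing the data, the ratio was 0.521 in clone 1 (0.435 to 0.622), 0.513 in clone 13, 0.628 in clone 6, 0.675 in clone 4, 0.800 in clone 10 and 0.774 in clone 11. It was 1.04 in clone 14 (0.883 to 1.23), 1.21 in clone 8 (0.996 to 1.48) and 1.42 in clone 17 (1.16 to 1.75). On that measure type I was in excess in 6 clones, clones 8 and 14 held parity and type II was in excess in clone 17. The clones with the highest sums of the 4 members, 546 and 590 TPM in clones 10 and 11, lay in the middle of this ratio, and those with the lowest, 28.3 and 27.6 TPM in clones 8 and 17, at its top.

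Of the other 46 counted keratin genes, 5 averaged 1 CPM or more, 41 were below it and 10 of these had no count in any clone. All 5 are type I genes on chromosome 11: Krt42, Krt17, Krt13, Krt10 and Krt16. No other type II gene of the 22 counted reached it, and the highest among them, Krt79, had a mean of 0.406 CPM. Krt7 and Krt8 accordingly made up 81.8 to 99.6% of the TPM of the counted type II genes.

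Krt42 and Krt17 were the abundant keratins of the clones in which the 4 members were low. Krt17, a keratin of stratified epithelia and of hair follicles, was at 97.2 CPM in clone 1, 83.6 in clone 6, 77.8 in clone 13, 64.6 in clone 4, 63.6 in clone 14, 59.5 in clone 10, 43.7 in clone 17, 38.0 in clone 8 and 28.5 in clone 11. Krt42, the neighbouring type I gene, had 274 CPM in clone 1, 242 in clone 13, 204 in clone 6 and 137 in clone 4. In the other 5, clones 10 and 11 included, it was at 43.2 to 75.5 CPM. Neither gene was highest in clones 10 and 11. Krt17 separated those 2 clones, being 2.09-fold higher in clone 10 than in clone 11 (1.85 to 2.36). Krt13 did so too, at 2.61 and 1.12 CPM, a fold of 2.33 (1.26 to 4.50). Krt13, Krt10 and Krt16 were at no more than 3.32, 2.1 and 1.81 CPM in any clone.

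The make-up of the keratin RNA thus differed between clones. The 4 members were 79.2 and 83.1% of the TPM of the counted keratins in clones 10 and 11 and 38.0% in clone 4. They were no more than 23.5% in the other 6, the lowest being 13.7% in clone 1. Krt42 alone was 65.4, 61.5 and 66.4% of the type I TPM in clones 1, 6 and 13 and 14.5 and 16.4% in clones 10 and 11. Krt18 and Krt19 together were 69.9 and 75.0% of type I TPM in clones 10 and 11, and 10.9 to 29.7% in the rest. Over the 50 counted keratin genes the ratio of type II to type I was 0.471 and 0.486 in clones 10 and 11 and 0.0406 to 0.144 in the other 7. Type I RNA outweighed type II RNA in every clone on this count, and least so in the 2 clones with the most Krt8.

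**Figure D2:**
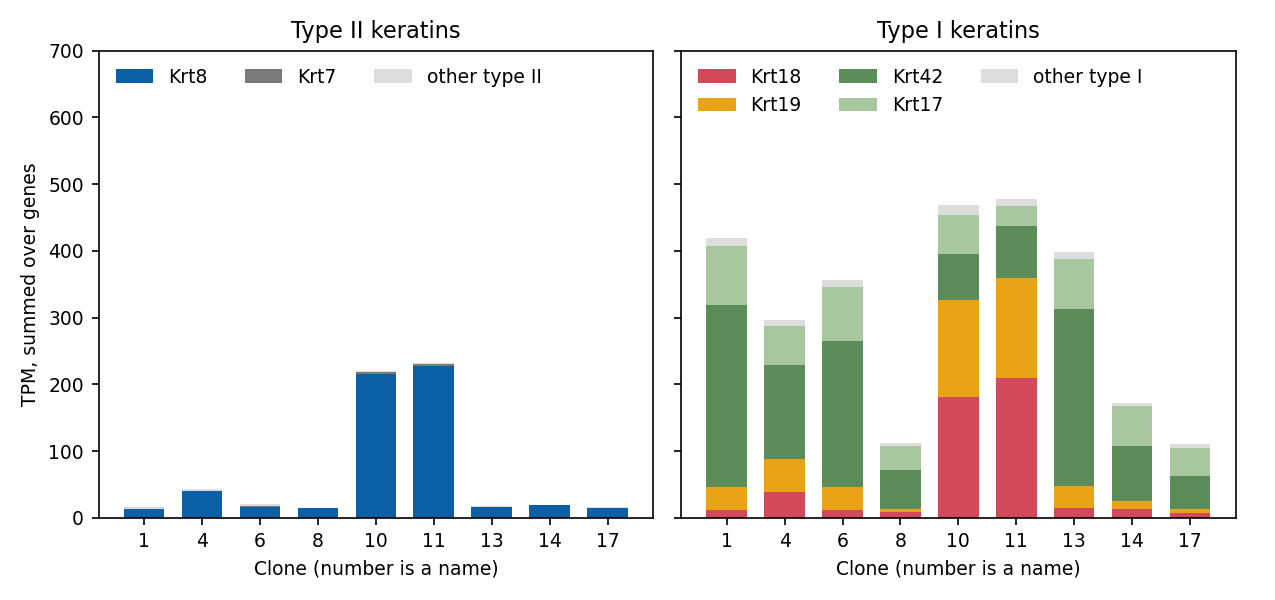
Summed TPM of type II (left) and type I (right) keratins in each clone, stacked by gene, on the same axis. Keratin symbols that end in a letter are left out. Clones 10 and 11 hold most of the Krt8, Krt18 and Krt19, while Krt42 and Krt17 make up most of the type I bars of the other 7 clones.

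Part of the reads cannot be assigned to a keratin without doubt. Krt8 and Krt18 have 1 listed transcript each. Krt8 shares 36.0% of its 31-base words with other genes, 32.2% with the processed pseudogene Krt8-ps, which was at no more than 0.379 CPM. Krt18 shares 11.4%, with pseudogenes that were listed at 0, and Krt19 and Krt7 share 0.439 and 3.03%. Krt17 shares 15.8% of its words, 11.8% with Krt14, whose highest level was 2.54 CPM. For Krt19, the coding transcript Krt19-201 took 57.8 to 87.4% of the gene's estimated counts and 39.0 to 76.7% of its TPM, since a shorter processed transcript, Krt19-203, took most of the rest. That coding transcript alone was at 91.2 and 87.7 TPM in clones 10 and 11, 21.6 in clone 4, 14.9 to 16.9 in clones 1, 6 and 13 and 3.59 to 4.83 in clones 8, 14 and 17, which is the same order of sets as for the gene. Krt7-201 took 53.8 to 94.1% of the estimated counts of Krt7.

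The nearest genes averaging 1 CPM or more on either side of the keratins were compared to see whether a stretch of chromosome moved as a whole. Genes below that mean were passed over. Beside Krt7 lie Atg101 (an autophagy gene), Nr4a1 (an orphan nuclear receptor) and Grasp (a scaffold protein gene). Beside Krt18 lie Eif4b (a translation initiation factor gene), Tns2 (a tensin gene) and Spryd3. Over the 9 clones these 6 had ranges of 0.44 to 1.58, none reaching 2. Eif4b, 41.7 kb from Krt18, was at 902 to 1323 CPM, with clones 10 and 11 at 1057 and 902. Tns2, 68.4 kb from Krt18, was at 5.78 to 10.4 CPM and had clones 10 and 11 highest at 9.78 and 10.4, with a step of 0.12. Grasp had clones 10 and 11 lowest, at 10.1 and 9.91 CPM against 10.4 to 30.0 in the others. The difference of clones 10 and 11 in Krt8 and Krt18 was thus not shared in size by any of the 6. Over 513 genes of chromosome 15 the median difference from the median clone was 0.0 to 0.007 log2 units in every clone.

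Krt19 on chromosome 11 gave a different picture for the low clones. The median over 1071 genes of that chromosome was -0.405, -0.363 and -0.391 log2 units in clones 8, 14 and 17, and 0.019 to 0.123 in the other 6. Krt19 itself was at -2.34, -1.46 and -2.25 in those 3 clones, and at -1.94, -1.1 and -1.86 once the chromosome's median was taken off. Most of the lower level of Krt19 in clones 8, 14 and 17 was therefore present beyond the chromosome-wide difference. In clones 10 and 11, Krt19 was at 2.22 and 2.11 after the same step. Its nearest neighbours averaging 1 CPM or more were Krt13, 19.2 kb away, and Krt16, Krt17 and Krt42 at 97.4 to 114 kb. Krt16 was also low in clones 8, 14 and 17, at 0.357, 0.146 and 0.144 CPM against 1.05 to 1.81 in the others. Those low values stand for only 5, 2 and 2 estimated counts. In clones 10 and 11 Krt16 was at 1.52 and 1.05 CPM, inside the range of clones 1, 4, 6 and 13. Smarce1, a chromatin remodelling subunit gene outside the cluster, was at 85.3 to 88.2 CPM in clones 8, 14 and 17, beside 107 to 127 in the others.

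**Figure D3:**
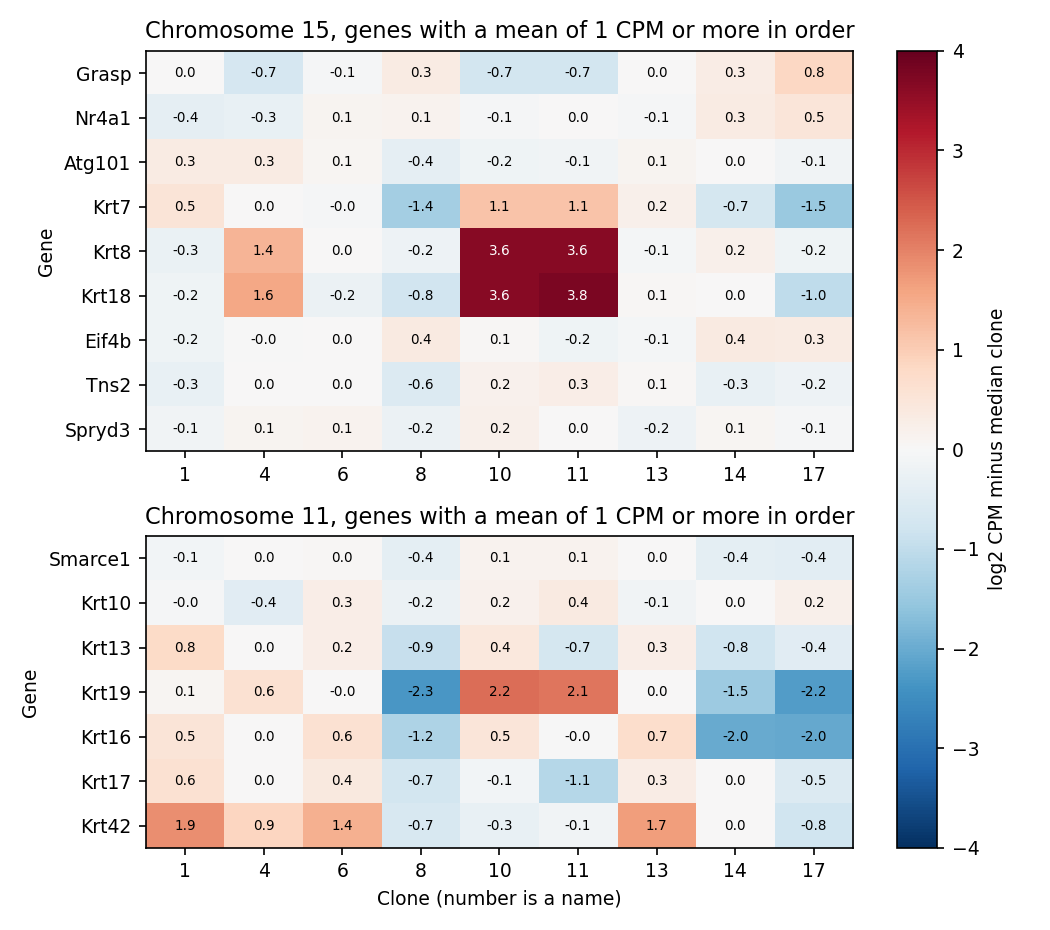
log2 CPM minus the median clone (colour and printed value) for the keratins and the nearest genes averaging 1 CPM or more, in their order along chromosomes 15 and 11. Clones 10 and 11 are at 3.65 to 3.77 for Krt8 and Krt18, and no gene outside the 4 members is above 1.86. Krt19 is at -2.34, -1.46 and -2.25 in clones 8, 14 and 17.

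Keratin filaments are anchored to desmosomes by linker proteins of the plakin family. Of 17 listed desmosome and linker genes, 15 averaged 1 CPM or more and 3 had clones 10 and 11 highest by at least 1 log2 unit, a step that 1.15% of all genes showed. The median range over the 15 was 1.07. Dsp, desmoplakin, which ties keratins to the desmosome, had 197 and 202 CPM in clones 10 and 11, beside 24.9 to 44.8 in the other 7. Dsc2, a desmosomal cadherin, was at 8.04 and 13.8 CPM, beside 1.14 to 1.98 in the others. Ppl, periplakin, was at 25.6 and 20.6 CPM, beside 4.39 to 7.78 in the others. That the values of clones 10 and 11 did not overlap those of any other clone for these 3 follows from the step they were named by. Clone 4, at 44.5, 1.98 and 7.78 CPM for Dsp, Dsc2 and Ppl, was at or near the top of the others but close to them. The rest of the list did not show a step of that size, though some genes had clones 10 and 11 highest by less. Jup, plakoglobin, was at 202 to 276 CPM in all clones, Pkp2 at 49.5 to 68.3 and Plec, plectin, at 196 to 364. Eppk1, epiplakin, had the next largest range, 1.82, and was highest in clone 14 at 43.1 CPM.

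Of 13 other intermediate filament genes, 12 averaged 1 CPM or more, with a median range of 1.12. Clones 10 and 11 were highest by at least 1 log2 unit in 1 of the 12, beside 1.15% of all genes. This was Nes, nestin, at 106 and 98.7 CPM in clones 10 and 11, 28.6 in clone 4 and no more than 21.4 in the other 6, an order of clones 10, 11 and 4 like that of Krt8. Nefm, a neurofilament subunit, had 10.2 and 7.84 CPM in those clones, with clone 6 at 3.94 and clone 4 at 3.53, a step of 0.97. Vim, vimentin, the filament of mesenchymal cells, did not follow. It was at 173 CPM in clone 10 and 312 in clone 11 and at 134 to 277 in the others, so that the 2 clones with equal Krt8 lay far apart. Per length, Krt8 was at 215 TPM and Vim at 169 in clone 10, at 228 and 333 in clone 11, and Vim exceeded Krt8 in the other 7 clones (154 to 281 TPM against 12.7 to 39.7). Nefl, another neurofilament gene, was highest in clone 4 at 106 CPM.

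All 12 listed chaperones and binding partners of keratins passed 1 CPM, with a median range of 0.92. Clones 10 and 11 were highest by at least 1 log2 unit in 1 of the 12, beside 1.15% of all genes. This was Cryab, a small heat shock protein, at 5.8 and 3.9 CPM against 0.437 to 1.41. It averaged below 1 CPM over the other clones and reached that mean only through clones 10 and 11. Hspb1, the small heat shock protein abundant in epithelia, was lowest in those clones, at 310 and 267 CPM against 428 to 782. The 14-3-3 gene Ywhae and the chaperone gene Hspa8 differed little, with ranges of 0.66 and 0.65. Prkce, a protein kinase C gene, and Tradd, a keratin-binding adaptor of death receptors, had ranges of 1.56 and 1.33 and were highest in clones 14 and 17, at 5.03 and 10.1 CPM.

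Genes of the epithelial surface gave the same mixture. Of 24, all averaging 1 CPM or more, 3 had clones 10 and 11 highest by at least 1 log2 unit, beside 1.15% of all genes. The median range of the 24 was 1.14. Among the 3, Cldn7, a claudin of tight junctions, had 21.3 and 21.8 CPM in clones 10 and 11, beside 3.64 to 7.85 in the others. Marveld2, tricellulin, was at 8.19 and 7.9 CPM against 2.51 to 3.62. Marveld3, of the same family, had a step of 0.42, with 6.66 and 5.03 CPM in those clones and 3.72 in clone 14. Cdh1 and Epcam, well known epithelial genes, did not separate these clones by a step of that size. Cdh1, E-cadherin, had 596 and 467 CPM in clones 10 and 11, but 523 in clone 14 and 192 to 421 in the other 6. Epcam was highest in clones 10 and 11, at 139 and 125 CPM against 88.6 to 119 in the others, but with a step of only 0.07.

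Among 23 listed transcription factors of simple epithelia, 20 averaged 1 CPM or more, with a median range of 1.09. Fosl2 alone had clones 10 and 11 highest by at least 1 log2 unit, beside 1.15% of all genes. Fosl2, an AP-1 subunit, was at 18.1 and 21.7 CPM, beside 1.78 to 4.29 in the others. Fosb, another AP-1 subunit, was at 3.49 CPM in clone 11 and 1.52 in clone 10, the latter below clone 1 at 1.95. Grhl2 and Grhl3, grainyhead-like factors of epithelia, were at 45.6 to 86.6 and 25.6 to 38.4 CPM with clones 10 and 11 inside or at the foot of those ranges. Klf4 and Klf5, Krüppel-like factors of both stem cells and epithelia, were at 58.1 and 82.7 and at 102 and 95 CPM in clones 10 and 11, beside 77.4 to 104 and 75.6 to 191 in the others. Ehf, an epithelial Ets factor, was lowest in clones 11, 10 and 4 at 0.42, 0.58 and 0.61 CPM, against 1.17 to 1.88. Ovol1, a repressor gene of epithelia, had 4.2 and 3.23 CPM in clones 10 and 11, with 3.07 in clone 6, a step of 0.07.

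Several other cell types make these keratins, so markers of those types were read in the same libraries. Their part in the keratin levels was not tested. Of 14 trophoblast genes, leaving the keratins out, 9 averaged 1 CPM or more. Among these 9, 1 had clones 10 and 11 highest by at least 1 log2 unit, beside 1.15% of all genes. This was Hand1, at 2.97 and 3.14 CPM against 0.146 to 0.698. Hand1 reached a mean of 1 CPM only through clones 10 and 11. The summed level of the list, mostly Tfap2c and Fgfr2, was 69.4 to 138 CPM, with clones 10 and 11 at 91.2 and 132, inside the range of the others. Cdx2, the defining trophectoderm factor, had 3.12 and 5.66 CPM in clones 10 and 11, with 3.05 in clone 4, against 0.488 to 1.24 in the other 6. Gata3 was at 0.585 to 2.41 CPM with clone 14 highest, Elf5 was highest in clone 13 at 1.58 CPM, and Prl3d1, a gene of trophoblast giant cells, had no count in any clone.

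Extraembryonic endoderm was represented by 12 of 17 genes averaging 1 CPM or more, with a median range of 2.03. Of these, Col4a2, a basement membrane collagen, alone had clones 10 and 11 highest by at least 1 log2 unit, beside 1.15% of all genes. Against 8.92 to 16.5 CPM in the others, it had 46.4 and 38.8 in clones 10 and 11. Hnf4a was lowest there, at 0.435 and 0.349 CPM against 0.915 to 3.02, and the defining factors Gata4, Gata6 and Sox17 were at 1.09 and 1.19, at 0.435 and 0.489 and at 0.652 and 0.28 CPM. Sox7 and Amn also had ranges of at least 2, with clones 17 and 1 highest at 3.02 and 3.32 CPM. The summed level, mostly Sparc, Lamb1 and Lama1, was 797 and 798 CPM in clones 10 and 11 and 598 to 760 in the others. That sum says little of Gata4, Gata6 and Sox17. Of 6 mesothelial genes besides the keratins, 3 passed 1 CPM and none met the step. Wt1 was highest in clones 10 and 11 at 3.91 and 4.06 CPM with a step of 0.91, and Msln was lowest in clone 4 at 0.457 CPM and highest in clone 13 at 5.06. Lrrn4 was at 10.1 to 26.0 CPM with clone 11 highest. The summed mesothelial level, mostly Lrrn4, was 23.6 and 33.5 CPM in clones 10 and 11 and 14.8 to 25.6 in the others. In the epidermal list, Krt5 and Trp63, the defining basal cell genes, were at no more than 0.145 and 0.151 CPM, and Krt17 and Krt10 were the 2 of 10 genes that passed 1 CPM. The summed epidermal level, mostly Krt17, was 64.6 and 32.7 CPM in clones 10 and 11 and 39.7 to 99.8 in the others.

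Among the 12 lists, that of fibroblasts held the most genes with clones 10 and 11 highest by the step. Those of the primitive streak, desmosomes and epithelial surface held 3 each, out of 6, 15 and 24 genes averaging 1 CPM or more. Of 11 fibroblast genes 7 averaged 1 CPM or more, with a median range of 4.93, and 5 had clones 10 and 11 highest by at least 1 log2 unit, beside 1.15% of all genes. Tagln, an actin-binding protein of contractile cells, was at 36.8 and 54.4 CPM against 1.65 to 4.8, and Col1a1, the chain of type I collagen, at 33.4 and 42.5 against 0.656 to 7.17 with clone 4 highest of the rest. Col1a2, Col3a1 and Acta2 made up the 5, at no more than 1.45, 1.07 and 1.45 CPM outside clones 10 and 11. These averaged below 1 CPM over the other clones and reached that mean only through clones 10 and 11. The share of 5 in 7, the median range and the lead over other lists were therefore partly fixed by this limit. Pdgfrb, at 5.8 and 4.61 CPM against 1.6 to 5.56, and Thy1, at 7.39 and 7.54 against 4.35 to 10.4, did not meet the step. The summed level of the list was 102 and 136 CPM in clones 10 and 11 and 11.1 to 30.7 in the others. The defining fibroblast genes Lum, Dcn and Postn were nevertheless at or near 0, at no more than 0.0762, 0.629 and 0.489 CPM in any clone, and Lum had no count in clones 10 and 11. Of 10 primitive streak genes 6 passed 1 CPM, with a median range of 2.72, and T, Wnt3 and Hand1 met the step. Hand1 passed 1 CPM only through clones 10 and 11. T, brachyury, had 9.2 and 28.2 CPM in clones 10 and 11 against 0.365 to 2.36, whereas Eomes was at 6.74 and 7.87 beside 7.8 in clone 4. Bmp4 was lowest in clones 10 and 11, at 30.2 and 31.9 CPM against 36.6 to 117. The summed streak level was 64.4 and 90.9 CPM in clones 10 and 11, inside the 54.3 to 128 of the others. Bmp4 was the largest part of that sum in every clone, so the sum says little of T, Wnt3 and Hand1.

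All 10 pluripotency genes passed 1 CPM. None had a range of 2, and their median range was 0.82. Their summed level was lowest in clones 10 and 11, at 4470 and 4172 CPM against 6065 to 6785. Tfcp2l1, a factor of the naive state, had 346 and 385 CPM in clones 10 and 11, beside 610 to 832 in the others. Nanog, Dppa5a and Esrrb were also lowest in those 2 clones, at 265 and 249, at 999 and 983 and at 382 and 369 CPM. So were Pou5f1 and Sox2. Klf2 and Zfp42 were lowest in clone 11 but not second lowest in clone 10. Utf1, at 120 and 150 CPM against 96.1 to 157, and Tdgf1, at 315 and 343 against 267 to 372, lay inside the range of the others. The clones with the highest keratin levels were thus those with the lowest sum of the 10 genes, though not with the lowest level of each. Whether the 2 are linked was not tested.

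**Figure D4:**
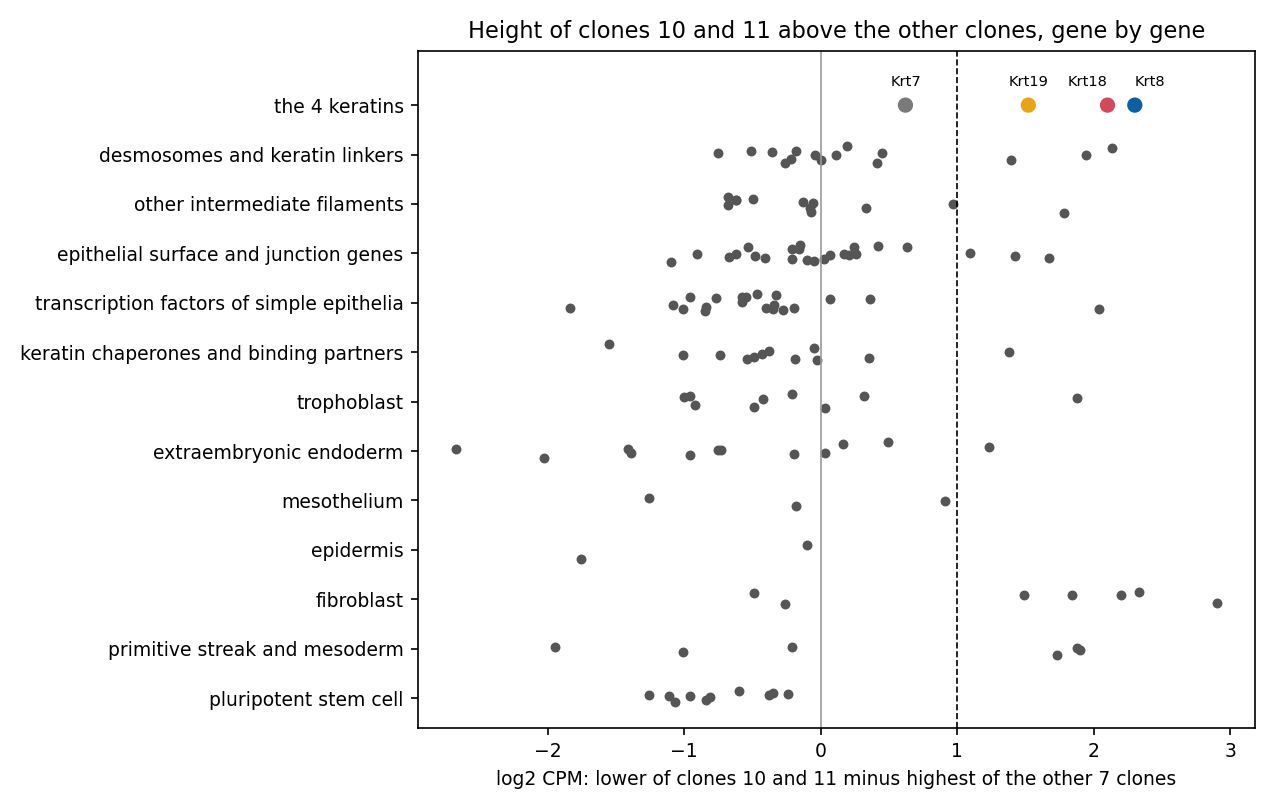
For each gene averaging 1 CPM or more, the lower log2 CPM of clones 10 and 11 minus the highest of the other 7 clones, by list. Each point is 1 gene, and points to the right of the dashed line at 1 have clones 10 and 11 highest by at least 1 log2 unit. Krt8, Krt18 and Krt19 lie at 2.3, 2.1 and 1.52 and Krt7 at 0.62, 5 of 7 fibroblast genes lie beyond the line, and all pluripotency genes lie below 0. Of these fibroblast genes, Col1a2, Col3a1 and Acta2 averaged 1 CPM or more only through clones 10 and 11.

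By the same measure of likeness, the 8 genes nearest to the mean profile of the 4 keratins over the 9 clones were led by Wnt3 (0.167), Igfbp3 (0.247), Cnn1 (0.258), Efemp1 (0.273), Pou3f1 (0.277), Gsn (0.298) and Col12a1 (0.320). For scale, the 4 keratins lay 0.47 to 0.631 from their own mean and the median gene 1.08. Wnt3, a Wnt ligand needed for the primitive streak, had 11.2 and 14 CPM in clones 10 and 11, 3.28 in clone 4, 1.6 to 2.15 in clones 1, 6, 13 and 14 and 1.21 and 0.934 in clones 8 and 17. Igfbp3, which binds insulin-like growth factors, had 146 and 179 CPM in clones 10 and 11, 38.7 in clone 4 and 17.8 to 26.2 elsewhere. Cnn1 (calponin) and Gsn (gelsolin) encode actin-binding proteins, Efemp1 and Col12a1 proteins of the extracellular matrix and Pou3f1 a POU factor. Each of the 8 had clones 10 and 11 highest by at least 1 log2 unit. Of these 8 genes, 0 remained among the nearest when clones 10 and 11 were both left out, and 2 remained on the log2(TPM + 1) scale, so the list rests on those 2 clones and on the scale.

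The nearest gene to each single member differed. For Krt8 and Krt18 it was Thbs1, thrombospondin-1, an adhesive matrix glycoprotein, at distances of 0.204 and 0.174. Thbs1 had 141 and 178 CPM in clones 10 and 11, 23.9 in clone 4 and no more than 11.2 in the others, the same 3 clones in the lead as for both keratins. For Krt19 it was Gprc5c, an orphan receptor gene also on chromosome 11, at 0.285. Gprc5c had 33.1 and 47.7 CPM in clones 10 and 11, 12.9 to 15.2 in clones 1, 4, 6 and 13 and 2.66 to 4.96 in clones 8, 14 and 17, with the same top and bottom clones as Krt19. For Krt7 it was Rab3b, a small GTPase of vesicle traffic, at 0.188, with 3.91 and 4.61 CPM in clones 10 and 11 and 0.862 to 1.24 in clones 8, 14 and 17. Krt18 was the second nearest of all genes to Krt8, and Krt8 the third nearest to Krt18. Krt7 was the 60th nearest gene to Krt19, and Krt19 the 2468th nearest to Krt7.

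**Figure D5:**
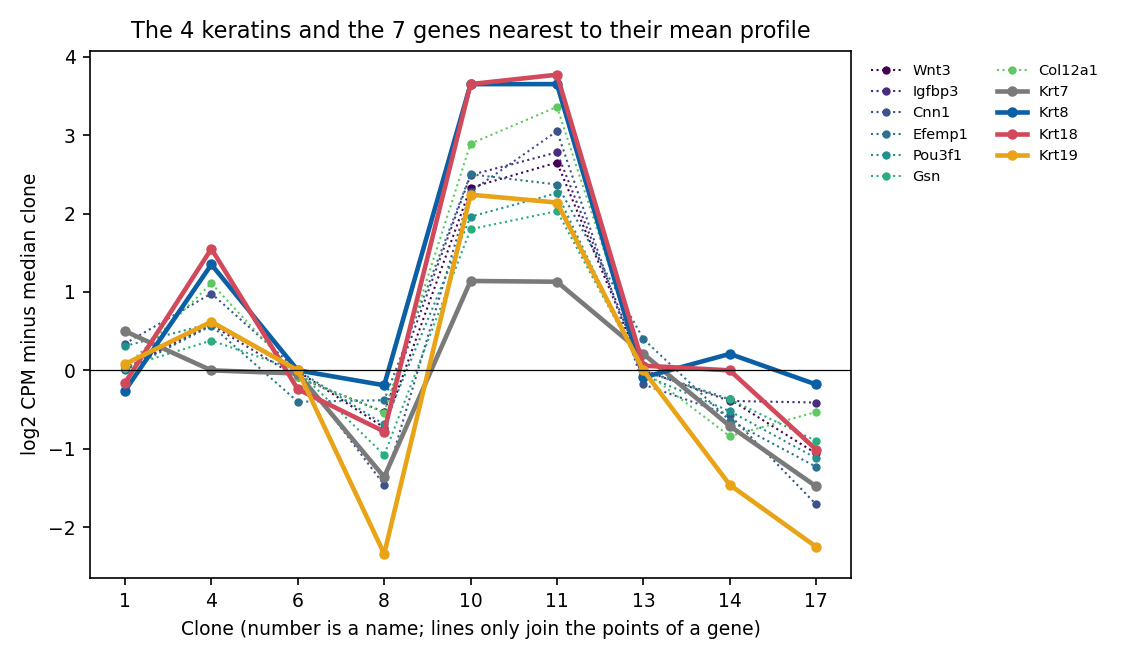
log2 CPM minus the median clone for the 4 keratins (solid lines) and the 7 genes nearest to their mean profile (dotted lines). Lines only join the points of a gene. All 11 genes are highest in clones 10 and 11, Krt8 and Krt18 reach 3.65 to 3.77 there and Krt7 1.13 to 1.14, and in clones 8 and 17 Krt19 is the lowest of the 11.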

How the data were processed

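RNA of 9 clones was measured, each as 1 sample without a group. The kit was for stranded mRNA, per the labels' protocols. CASAVA 1.8, FastQC, Trimmomatic 0.33 and kallisto 0.43.1, with builds mm10 and GRCm38, are named in the submitters' processing notes. The deposited tables give an estimated count and a TPM value per transcript, per the file headers. The authors' tool, kallisto, divides reads between near-identical transcripts. Of 115270 transcripts, 113580 (98.53%) matched GENCODE M21 by identifier and were summed per gene symbol, and the rest held 0.641 to 0.773% of counts. Log2 CPM used edgeR 4.0.16 with prior count 2 and TMM factors, for the 13366 genes averaging 1 CPM or more. Fold intervals are exact conditional binomial and CPM intervals exact Poisson, at 95%. Since reads carry no molecular identifiers, these and the floor of 3 counts cover counting error only. Words of 31 bases were compared between annotated transcripts.

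The members and 12 gene lists were chosen with earlier results of these data known. The genes named are the keratins averaging 1 CPM or more, per list up to 4 genes of the largest range and those with clones 10 and 11 highest, the 8 nearest profiles and the nearest to each member, chromosomal neighbours and defining markers. Krt14, Krt79, Krt5, Jup, Pkp2, Plec, Ywhae, Hspa8, Cdh1, Epcam, Grhl2, Grhl3, Klf4, Klf5, Gata4, Gata6, Sox17, Elf5, Prl3d1, Trp63, Pdgfrb, Thy1, Tfap2c, Fgfr2, Utf1, Tdgf1, Klf2, Sparc, Lamb1 and Lama1 were chosen after their values were seen. Of the genes the rule names, 2 are not reported here. Steps were tested on simulated data. Alternatives were median-ratio size factors (DESeq2 1.42.0), prior count 0.5, no filter or 5 CPM, log2(TPM + 1), and each clone left out. Leaving out clones 10 and 11 together and coding transcripts alone were added later. Other tools were Python 3.11.15 with pandas 2.3.3 and scipy 1.17.1, and R 4.3.3.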

Additional observations from a re-analysis of the deposited data

How the results depend on the processing

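No paired analysis was possible because the clones form no groups and share no replicate numbers. Under the alternatives, 69 values stayed within 1.5 times or the interval set for them and 16 moved beyond it. Many of the 69 are keratin ranges with 1 clone left out, which cannot change unless that clone was the highest or lowest. The tally is therefore no measure of stability. With clones 10 and 11 both left out, an alternative chosen after seeing the data, the range was 1.61 for Krt8, 2.56 for Krt18 and 2.97 for Krt19, and 0 of the 8 nearest profiles remained. The count of genes with a range of at least 2, 1057, was 2714 without a filter on low values, 352 at a minimum of 5 CPM and 424 on the log2(TPM + 1) scale, where small values vary less by construction. On that scale the range of Krt7 was 1.71, below 2, and it counts as unmoved only because its interval is wide. Those of Krt8, Krt18 and Krt19 were 4.06, 4.78 and 4.57 there. The 154 genes with clones 10 and 11 highest became 62 at 5 CPM and 88 with log2(TPM + 1). The median ratio of type II to type I members was 0.645, and 0.705 from estimated counts over the effective length of the leading transcript and 0.774 from protein-coding transcripts alone, the latter added after seeing the data. Of the 8 nearest profiles, 2 remained with log2(TPM + 1) and 4 to 7 when single clones were left out. Clones 10 and 11 were the 2 highest for all 4 keratins under median-ratio size factors, prior count 0.5 and log2(TPM + 1). With 1 library per clone there is no measure of the spread between cultures of a clone, and Krt7, with 11.2 to 81.3 estimated counts, is the member that depth limits most.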

Other observations

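Some genes below a mean of 1 CPM, chosen after their values were seen, were also highest in clones 10 and 11. Krt14, the type I keratin of basal epidermal cells, had 2.54 and 1.33 CPM in those clones, beside 0.214 to 0.623 in the other 7, while its type II partner Krt5 was at no more than 0.145 in any clone. Krt14 shares sequence with Krt17, so its value is uncertain. Fosl1, an AP-1 subunit, had 1.52 and 2.1 CPM in clones 10 and 11, beside 0.279 to 0.948 in the others. Mixl1, a primitive streak factor, was at 3.07 CPM in clone 11 and 0.797 in clone 10, against 0.305 to 0.68 in the others. These differences between single libraries were not tested.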
